A study of Mus musculus with 9 samples.

Results

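The transcriptomes of untreated *Tnfaip2*-/- embryoid bodies (EBs) and of wild-type EBs were compared by RNA-seq on day 3 of differentiation. This comparison took 6 of the 9 libraries of the series, the 3 labelled as knockout without supplement (KO) and the 3 labelled as wild type (WT), chosen by the sample titles alone, and all 55471 gene IDs of the count table. Both groups were grown from E14 mouse embryonic stem (ES) cells, kept with leukemia inhibitory factor. ES cells were aggregated for 3 days in hanging drops, plated on gelatin and cultured for 3 more days in fibroblast medium. Neither group received palmitic acid or palmitoyl-L-carnitine. For the hanging drops the study's methods give ES cell medium, which they list with leukemia inhibitory factor, and fibroblast medium is listed without it. For EBs given the supplement they give fibroblast medium in both steps, and untreated controls are not described apart. The KO cells carried a CRISPR/Cas9-made frameshift with an early stop codon in *Tnfaip2*, with 1 altered sequence given for the line, and the WT cells were of the same line without this edit. A difference between KO and WT therefore cannot be told apart from a difference between cell lines that existed before or arose after the edit. The titles number the libraries but do not say how their cultures were kept apart, so p-values measure the spread between these libraries.

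When ES cells aggregate and lose self-renewal signals, they leave the naive pluripotent state, pass through a formative epiblast-like state and begin to form the germ layers, and an outer layer of primitive endoderm covers the aggregate. Naive factors such as *Nanog* and *Klf2* fall along this path, while patterning factors of the HOX, PAX and ZIC families switch on. The core of an aggregate is also short of oxygen, and hypoxia-inducible factors then raise glycolytic enzymes and genes such as *Vegfa*. TNFAIP2 is a relative of the exocyst subunit EXOC3. The comparison asked which genes differ in differentiating EBs when *Tnfaip2* is disrupted.

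The guide RNA is shown because it fixes where the knockout was made and whether read counts can report it. Its designed sequence was found in several *Tnfaip2* transcripts (GENCODE M21), each time at chr12:111445173-111445192 of GRCm38 on the plus strand. In the coding transcript *Tnfaip2*-201 it lay in exon 2 of 12, and the expected cut lay in codon 82 of 691. Further matches, within the gene or in other genes, were not searched for. In capitals is the adjacent NGG motif that Cas9 needs.
Tnfaip2 target: tgttcagtgtcttcaccaaaGGG
An edit of this kind need not remove the transcript, and counts over the gene were too few to check the labels. *Tnfaip2* held 16, 6 and 10 counts in the WT libraries and 5, 6 and 8 counts in the KO libraries, which overlap. It did not pass the filter on low counts, and without that filter the log2 fold change was -0.78 ± 0.42 (SE, edgeR adjusted p = 0.14). Every direction given for KO is that of the libraries labelled so.

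Depth was even, between 27611447 and 28914312 counts per library, and the mitochondrial share was 1.85% to 1.87% in WT and 1.96% to 1.98% in KO. Correlations of log2 CPM (counts scaled to the same library total) across genes were 0.9985 to 0.9988 within groups and 0.9744 to 0.975 between them, and a single principal component took up 93.1% of the variance. Both groups expressed the 8 pluripotent cell markers checked, at a sum of 3561 to 3579 CPM in WT and 4957 to 4970 CPM in KO, beside low levels of germ layer genes. In bulk RNA, fewer cells of a type and less RNA per cell cannot be told apart.

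In KO versus WT, 12813 of 17355 tested genes (73.8%) passed the quasi-likelihood test of edgeR at an adjusted p under 0.05, with 6380 higher (36.8%) and 6433 lower (37.1%) in KO. Replicates varied by 2.09% (biological coefficient of variation), so that small shifts passed: 4279 of the called genes differed by less than 1.25-fold and 3232 by 1.25- to 1.5-fold. A second test therefore required a change of more than 2-fold. It called 1587 genes (9.14%), 930 higher (5.36%) and 657 lower (3.79%), and these shares are the background for every group below. Long non-coding genes were called more often past the minimum fold in either direction, with 125 higher (8.02%) and 111 lower (7.12%) of 1558 tested. By the first test 399 of them were higher and 543 lower, smaller shares than the 36.8% and 37.1% of all genes. Past the minimum fold, 79 of 974 tested pseudogenes were higher and 15 lower. Among called genes 467 differed by 4- to 8-fold and 236 by more than 8-fold.

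**Figure D1:**
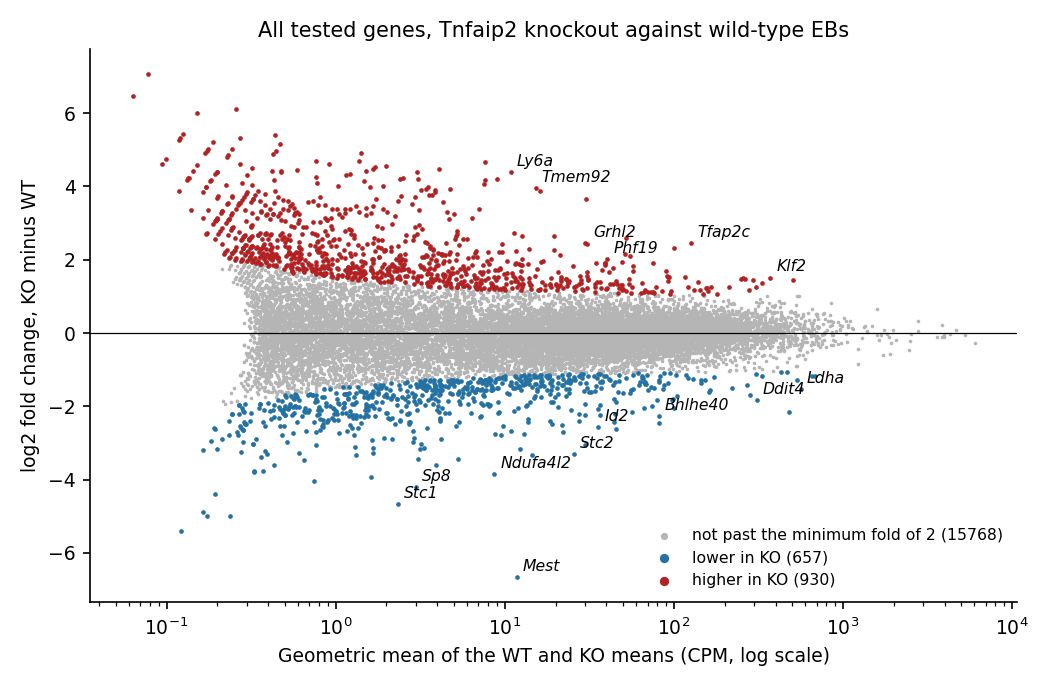
Each point is 1 of 17355 tested genes. The x axis gives the geometric mean of the WT and KO group means (CPM, log scale) and the y axis the log2 fold change, KO minus WT. Red marks the 930 genes higher and blue the 657 genes lower in KO at a tested minimum fold of 2, and *Mest* lies lowest among genes averaging 10 CPM or more in 1 group.

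Among genes averaging 10 CPM or more in either group, the largest fall was that of *Mest*, a paternally expressed imprinted gene. It stood at 114, 119 and 120.3 CPM in the WT libraries and 1.16, 1.57 and 0.761 CPM in the KO libraries. The log2 fold change was -6.66 ± 0.08 (SE, edgeR adjusted p = 1.72e-36), or 101-fold lower, and 21.1% of the 51-base words of its transcripts also occur in other genes. The next were *Stc1*, *Sp8*, *Ndufa4l2*, *Nxph4*, *Adm*, *Bcl11b*, *Vldlr*, *Stc2*, *A2m*, *Crabp2* and *Zfp467*, all 7.39-fold to 25.4-fold lower. Of these, *Stc1*, *Ndufa4l2*, *Adm*, *Vldlr* and *Stc2* belong to the hypoxia response list and *Sp8*, *Bcl11b* and *Zfp467* encode zinc finger transcription factors. *Crabp2*, which carries retinoic acid to its receptors, was present at 85.3, 89 and 83.8 CPM in the WT libraries and 10.2, 10 and 10.9 CPM in the KO libraries. Separation of the WT from the KO libraries was a condition for naming these 12 genes. None but *Mest* shares more than 5% of its words.

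Of the 12 largest rises, 4 were those of *Zscan4a*, *Zscan4d*, *Zscan4f* and *Zscan4-ps3*, of a multicopy family known from 2-cell embryos. The predicted genes *Gm8300*, *Gm5039*, *Gm4971*, *Gm2016*, *Gm16478* and *Gm18983* made up 6 more. *Zscan4d*, a telomere regulator, stood at 2.22, 1.94 and 2.17 CPM in the WT libraries and 36.7, 39.4 and 40 CPM in the KO libraries. Because 49.1% of its words occur in other genes and reads mapping to several places were not counted, levels of single copies are uncertain. The remaining 2 were *Ly6a*, which encodes the surface protein SCA-1, and *Tmem92*. *Ly6a* stood at 2.61, 1.91 and 2.57 CPM in the WT libraries and 50.4, 47.6 and 51 CPM in the KO libraries, with 18.5% of its words shared, and *Tmem92* at 3.95, 3.7 and 3.95 CPM in the WT libraries and 59.3, 62.7 and 57.5 CPM in the KO libraries. Their log2 fold changes were 4.39 ± 0.08 (SE, edgeR adjusted p = 9.23e-32) and 3.95 ± 0.06 (SE, edgeR adjusted p = 1.62e-32).

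**Figure D2:**
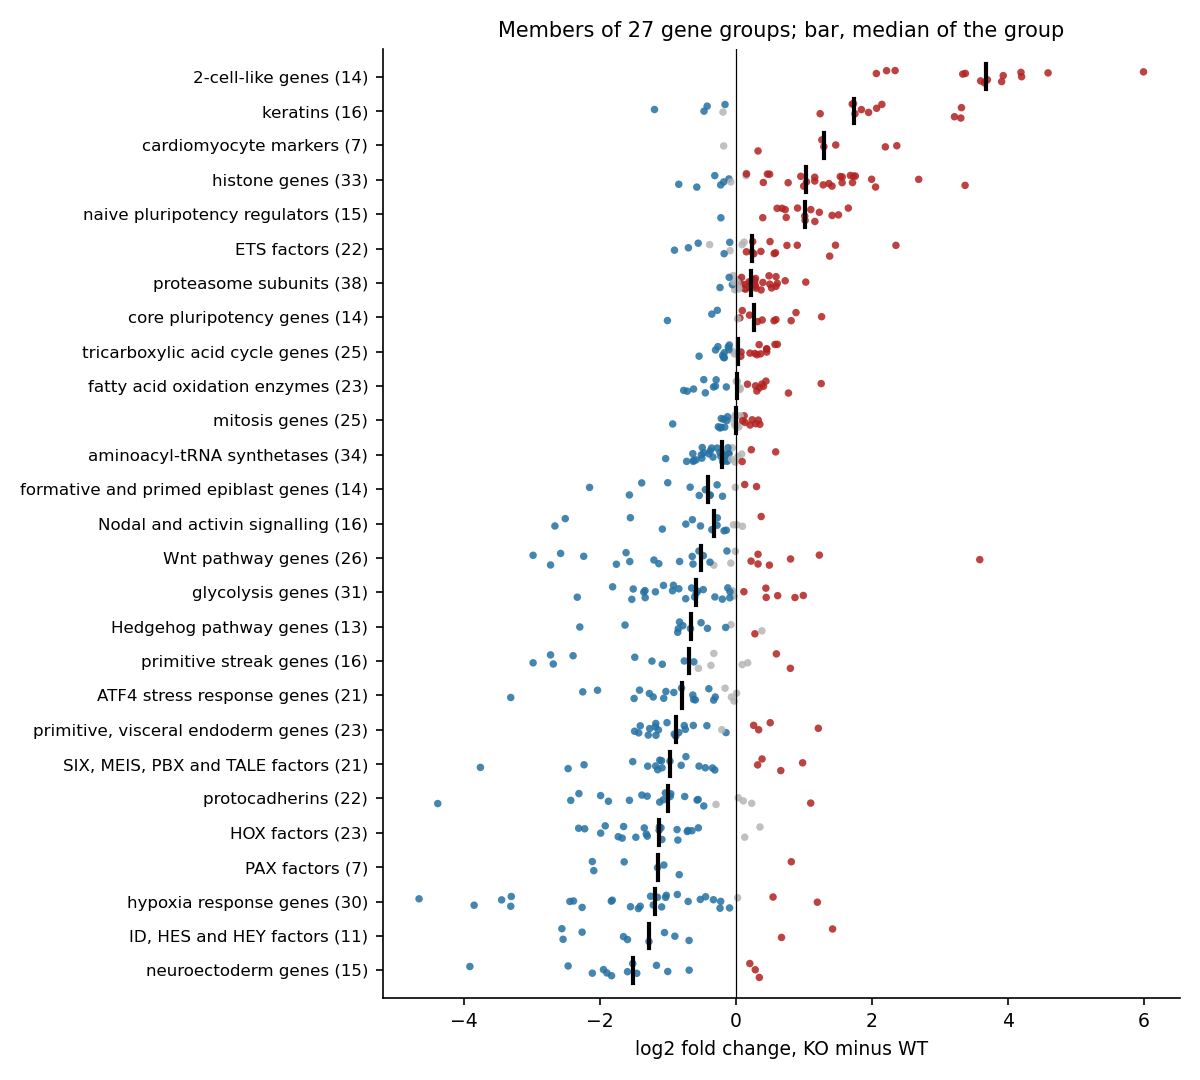
Log2 fold changes (KO minus WT) of the tested members of 27 gene groups, with the number of tested members in brackets. Points are genes, red where called higher, blue where called lower and grey where not called at an adjusted p under 0.05, and each black bar is the group's median. The highest median is that of 2-cell-like genes (3.68) and the lowest that of neuroectoderm genes (-1.52).

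Transcription factors were more often lower than higher. Of 573 tested factors of named families, leaving out the large DMRT, ZSCAN and ZFP zinc finger family, 277 were lower and 194 higher, and at the minimum fold 71 were lower (12.4%) and 31 higher (5.41%), against 3.79% and 5.36% of all genes. Their median log2 fold change was -0.15, and that of all genes was -0.01. In the left-out zinc finger family, which includes the *Zscan4* genes, 11 of 403 were lower and 9 higher at the minimum fold.

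The largest falls among factors joined neural patterning genes with repressors of the helix-loop-helix class. *Sp8*, needed for limb and forebrain outgrowth, stood at 13.3, 11.4 and 13.6 CPM in the WT libraries and 0.805, 0.535 and 0.726 CPM in the KO libraries. *Bcl11b*, a zinc finger factor of T cells and neurons, stood at 10.4, 9.99 and 9.92 CPM in the WT libraries and 1.01, 0.964 and 0.795 CPM in the KO libraries. *Pax6*, a regulator of eye and forebrain, was 4.33-fold lower and *Sox11*, an early neural factor, 4.45-fold lower, with log2 fold changes of -2.11 ± 0.07 (SE, edgeR adjusted p = 4.87e-24) and -2.15 ± 0.04 (SE, edgeR adjusted p = 1.66e-31). *Id2* and the circadian repressors *Bhlhe40* and *Bhlhe41* block other helix-loop-helix factors. *Id2* fell from 86.8 ± 3.37 CPM in WT to 14.7 ± 0.189 CPM in KO (SD, n = 3), *Bhlhe40* from 178 ± 1.12 CPM in WT to 37.1 ± 0.683 CPM in KO (SD, n = 3) and *Bhlhe41* from 23.7 ± 0.392 CPM in WT to 4.05 ± 0.413 CPM in KO (SD, n = 3). *Atf5*, a factor of the amino acid stress response, fell by 2.04 on the log2 scale, *Sall2* by 2.00, *Mef2b* by 2.76 and *Zfp467* by 2.89.

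The 12 largest rises among factors were *Zscan4f*, *Zscan4d*, *Zscan4c*, *Tfap2c*, *Grhl2*, *Sox15*, *Rhox9*, *Nfe2l3*, *Rhox6*, *Klf2*, *Elf4* and *Id4*. *Tfap2c* encodes the AP-2 gamma factor of trophoblast and germ cells. It stood at 53.3, 54.6 and 53.9 CPM in the WT libraries and 292, 298 and 293 CPM in the KO libraries, 5.45-fold higher in KO (log2 fold change 2.45 ± 0.03 (SE, edgeR adjusted p = 1.85e-36)). *Grhl2*, which maintains epithelial cell contacts, stood at 14, 12.6 and 13 CPM in the WT libraries and 69.8, 72.7 and 71.5 CPM in the KO libraries. *Sox15*, which is active in ES cells and placenta, rose from 8.92 ± 0.781 CPM in WT to 42.7 ± 1.31 CPM in KO (SD, n = 3). *Klf2*, a naive pluripotency factor, rose from 221 ± 16.2 CPM in WT to 629 ± 14.2 CPM in KO (SD, n = 3), although it lies on chromosome 8, whose genes were lower on the whole. *Rhox6*, *Rhox9* and *Elf4* lie on the X chromosome, whose genes were higher on the whole, and their log2 fold changes of 1.56, 1.90 and 1.46 exceed that shift.

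**Figure D3:**
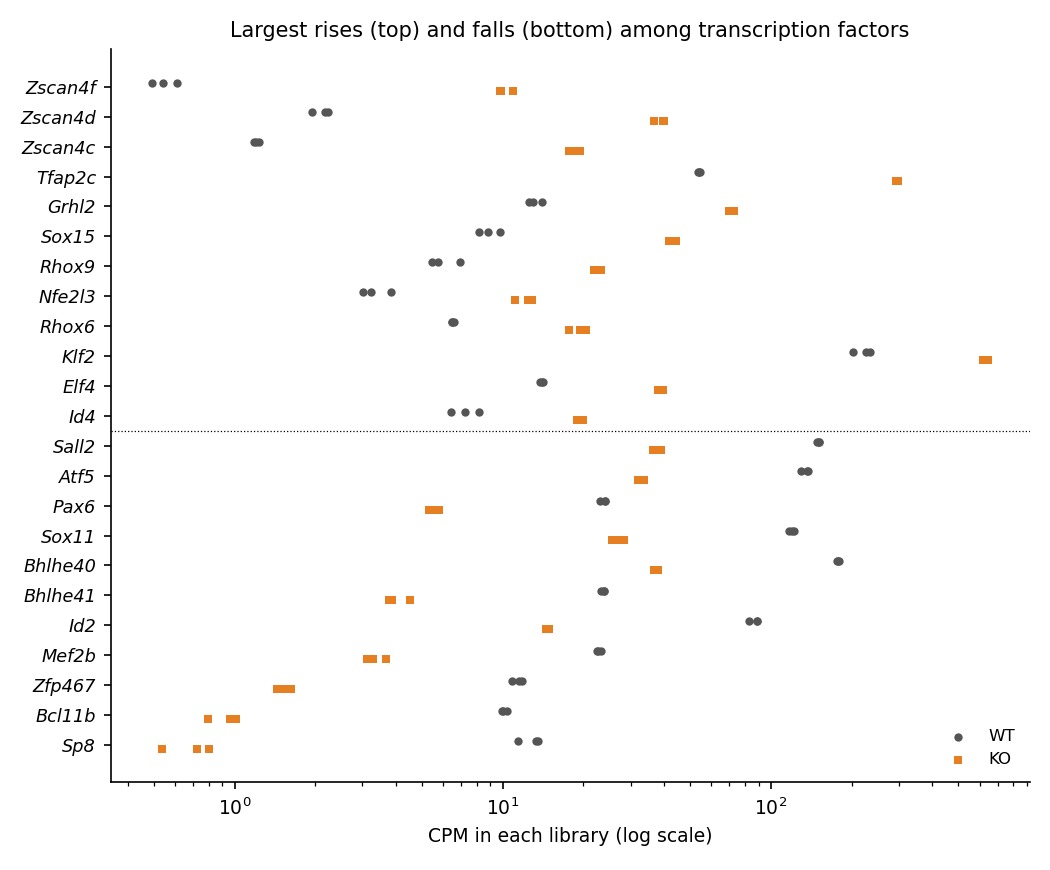
Levels of transcription factors with the largest rises (above the dotted line) and falls (below it) at a tested minimum fold of 2, among factors averaging 10 CPM or more in 1 group. The x axis gives CPM in each library on a log scale, with grey circles for the 3 WT and orange squares for the 3 KO libraries. Separation of the WT from the KO libraries was a condition of the choice.

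Families that pattern the body axis and nervous system were lower as groups. Of 39 HOX genes, 23 passed the filter, and 21 were lower and 0 higher, 7 of them past the minimum fold. Their median log2 fold change was -1.13. The lower HOX genes came from all 4 clusters and from both ends of the series, with *Hoxa2* at -2.31, *Hoxa5* at -1.99, *Hoxb1* at -1.47, *Hoxc4* at -1.09, *Hoxd9* at -1.10 and *Hoxb13* at -0.85. Levels were low, and the sum over the family was 94 to 97.6 CPM in WT and 40.5 to 41.5 CPM in KO. *Hoxa5* was among the higher ones, at 16.1, 14.9 and 17.6 CPM in the WT libraries and 3.92, 3.96 and 4.32 CPM in the KO libraries. *Hoxb5* and *Hoxd1* were not called, and the 16 HOX genes that did not pass the filter cannot be judged here.

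Homeobox factors of the MEIS, PBX, IRX and sine oculis groups, of which MEIS and PBX bind DNA together with HOX proteins, were mostly lower too. Of 21 tested, 17 were lower and 4 higher, among them *Six4*, *Tgif2* and *Pknox1*. *Meis1* fell by 1.52 and *Meis2* by 1.09 on the log2 scale. *Six2* was near the floor in KO, at 1.55, 1.29 and 1.12 CPM in the WT libraries and 0.070, 0.107 and 0.104 CPM in the KO libraries. Of 7 tested PAX genes 6 were lower, among them *Pax3*, *Pax6* and *Pax7*, and *Pax8* was higher. In the ID, HES and HEY families 9 of 11 were lower, including the Notch targets *Hes1* (-1.05) and *Hes6* (-1.66), and *Id4* and *Hey1* were higher. Among other homeobox factors, 11 of 48 were lower past the minimum fold, led by *En1*, the midbrain and limb factor, from 9.42 CPM in WT to 1.05 CPM in KO, *Emx2*, *Alx1*, *Zfhx4* and *Msx1*, while *Meox1*, *Obox6* and 3 *Rhox* genes were higher.

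Some families split. Of 18 tested SOX genes, *Sox11*, *Sox1*, *Sox7* and *Sox4* were lower past the minimum fold, and *Sox15* and *Sox21* higher. *Sox2*, shared by naive, epiblast and neural cells, rose by 0.56 on the log2 scale. Of 37 nuclear receptors 16 were lower and 15 higher. *Nr2f1* and *Nr2f2*, the COUP factors of neural and mesodermal cells, were lower at -2.58 and -2.78, and the naive-state receptors *Esrrb*, *Nr5a2* and *Nr0b1* were higher at 0.61, 0.72 and 0.74. Of 24 Kruppel-like and SP factors 13 were higher and 6 lower, with *Klf2* and *Klf8* up and *Sp5* and *Sp8* down past the minimum fold. Of 22 ETS factors 13 were higher and 5 lower, and *Elf4*, *Spic* and *Erg* passed the minimum fold. *Tfap2b*, the neural crest relative of *Tfap2c*, went the other way, from 0.885 CPM in WT to 0.0238 CPM in KO.

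Genes that answer to low oxygen were lower in nearly every case. Of 30 tested members outside glycolysis, 27 were lower and 2 higher, and 16 were lower past the minimum fold, with a median log2 fold change of -1.19. *Stc1*, a secreted regulator of calcium and phosphate, stood at 10.9, 11.8 and 12.3 CPM in the WT libraries and 0.21, 0.535 and 0.623 CPM in the KO libraries. *Ndufa4l2*, which replaces a respiratory chain subunit under hypoxia, stood at 32.4, 34.4 and 32.3 CPM in the WT libraries and 2.42, 2.39 and 2.04 CPM in the KO libraries. *Ddit4*, which restrains mTORC1, stood at 557, 592 and 597 CPM in the WT libraries and 170.5, 166 and 158 CPM in the KO libraries, a log2 fold change of -1.82 ± 0.03 (SE, edgeR adjusted p = 4.21e-33). *Vegfa*, the vascular growth factor, was 2.66-fold lower, at 138, 146 and 145 CPM in the WT libraries and 56.5, 52.9 and 52 CPM in the KO libraries. The prolyl hydroxylases that mark HIF for destruction and are themselves HIF targets were lower as well, *Egln3* from 192 CPM in WT to 35.2 CPM in KO and *Egln1* from 186 CPM in WT to 52 CPM in KO. *Hif1a* itself was not called (log2 fold change 0.02 ± 0.03, SE), and *Epas1*, encoding HIF-2 alpha, rose by 0.55. *Car12*, a carbonic anhydrase, also rose.

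Glycolysis genes were lower along the pathway. Of 31 tested IDs, 23 were lower and 6 higher, and 9 were lower and 0 higher past the minimum fold, with a median of -0.59. Their sum fell from 16960 to 17370 CPM in WT to 12220 to 12420 CPM in KO. *Ldha*, which makes lactate, stood at 952, 960.1 and 958 CPM in the WT libraries and 331, 338 and 322 CPM in the KO libraries. The lactate exporter *Slc16a3* fell by 1.51 on the log2 scale, *Gpi1* by 1.19, *Pfkl* by 1.07 and *Tpi1* by 0.92, while the glucose transporter *Slc2a1* fell by 0.84 and *Slc2a3* was not called (-0.03). The glycogen enzymes *Gbe1*, *Pgm1* and *Gys1* were 5.05-, 3.52- and 2.53-fold lower. *Ldhb*, *Hk1*, *Pygl*, *Pgm2*, *Pgam2* and *Pdk3* were higher. Genes of the tricarboxylic acid cycle were split, with 12 higher and 10 lower of 25 and none past the minimum fold.

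Promoters of these genes are shown because the members moved together and hypoxia-inducible factors bind the core ACGTG or GCGTG. Windows of 250 bases before annotated starts were read from RefSeq (GRCm38.p6), which held one for 24 of the 30 hypoxia genes and 29 glycolysis symbols. Both strands were searched. Of the 2 largest falls with an entry in each list, *Adm* and *Pgm1* held 2 matches each and *Vldlr* and *Gbe1* held none. The sequences of *Adm* and *Pgm1* were chosen for printing after the matches were seen, with the matches in capitals.
Adm promoter, chr7:110627407-110627656, plus strand: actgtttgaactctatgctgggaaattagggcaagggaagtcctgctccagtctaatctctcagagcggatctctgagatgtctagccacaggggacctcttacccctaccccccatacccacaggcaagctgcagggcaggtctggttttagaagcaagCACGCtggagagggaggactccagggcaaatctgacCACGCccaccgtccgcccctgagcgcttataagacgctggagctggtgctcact
Pgm1 promoter, chr4:99929201-99929450, plus strand: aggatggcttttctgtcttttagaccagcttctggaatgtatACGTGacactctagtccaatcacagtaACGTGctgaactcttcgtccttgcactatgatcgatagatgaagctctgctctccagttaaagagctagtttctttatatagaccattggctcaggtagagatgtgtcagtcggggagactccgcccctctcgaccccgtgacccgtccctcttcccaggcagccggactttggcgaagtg
*Adm* encodes the vasodilator adrenomedullin and was 10.9-fold lower, and *Pgm1* links glycogen to glycolysis. A gene was counted where any of its windows held a match, so genes with more annotated starts had more chances. The number of starts was not matched between lists. At least 1 match stood in 21 of 24 hypoxia genes (87.5%) and 23 of 29 glycolysis genes (79.3%), against 59.6% of 11448 tested protein-coding genes with an entry. Counted by single promoter, a different unit, the share was 38.6% of all 32851. In lists named for other factors or functions a match stood in 14 of 18 ATF4 stress response genes (77.8%), 14 of 22 tricarboxylic acid cycle genes (63.6%), 37 of 63 cytosolic ribosomal protein genes (58.7%) and 7 of 14 HOX genes (50%). A match is a run of letters and not a measured binding site.

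Targets of ATF4, the factor that raises amino acid uptake and synthesis when translation initiation is inhibited, were lower, with 17 of 21 lower, 0 higher and 8 past the minimum fold. *Chac1*, a glutathione-degrading enzyme, stood at 49.5, 53.4 and 52.4 CPM in the WT libraries and 19.5, 17.8 and 17.6 CPM in the KO libraries. *Trib3*, a pseudokinase, stood at 101, 102 and 103 CPM in the WT libraries and 38.5, 39.1 and 36.6 CPM in the KO libraries. *Ddit3*, encoding CHOP, fell by 1.22, *Slc7a5*, a leucine carrier, by 1.06 and *Psat1*, of serine synthesis, by 1.03 on the log2 scale, and *Atf4* fell by 0.60. Transfer RNA synthetases, several of which are ATF4 targets, were lower in 26 of 34 cases and higher in 3, each by less than 2-fold except *Iars*, which fell from 303 ± 6.2 CPM in WT to 148 ± 2.93 CPM in KO (SD, n = 3). The endoplasmic reticulum stress list moved little and the other way, with 13 of 22 higher, 3 lower and 0 past the minimum fold. *Xbp1* rose from 105 CPM in WT to 215 CPM in KO.

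**Figure D4:**
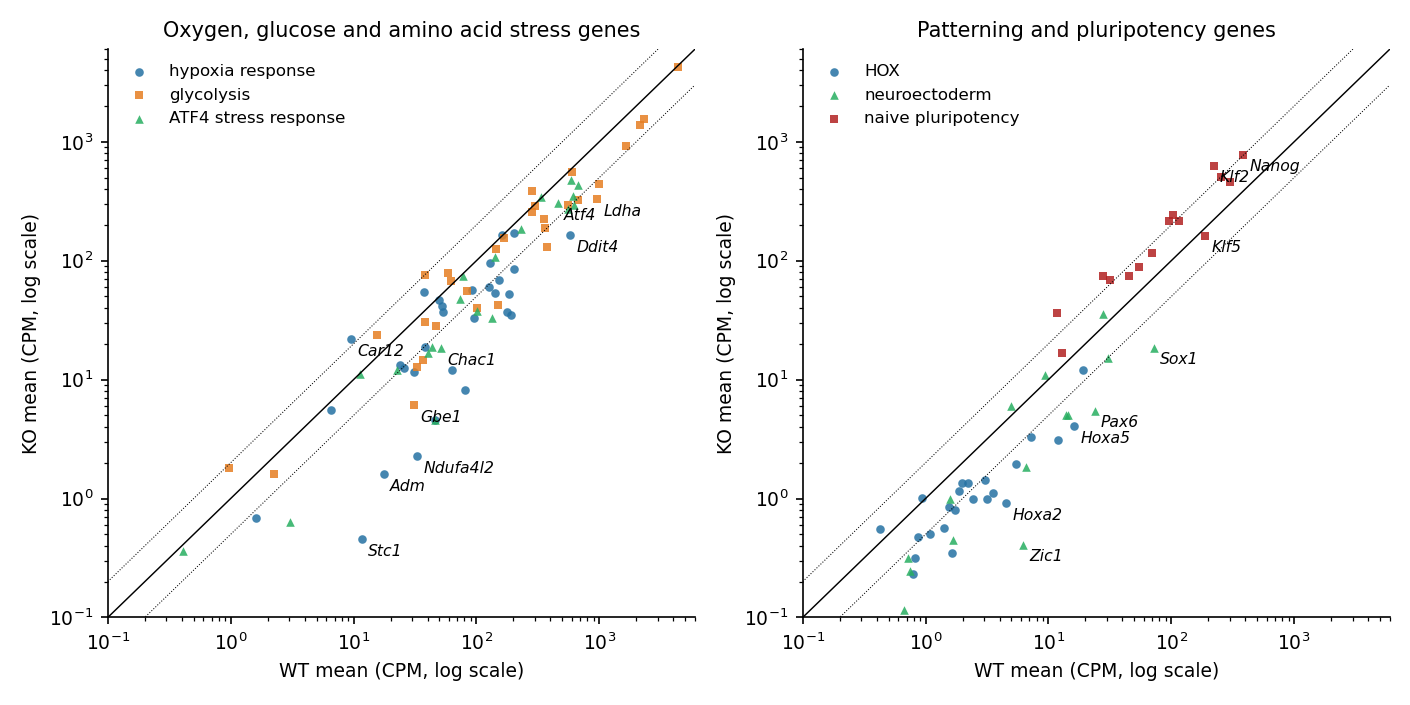
Group means in KO (y axis) against WT (x axis), in CPM on log scales. The left panel shows hypoxia response, glycolysis and ATF4 stress response genes and the right panel HOX, neuroectoderm and naive pluripotency genes. The solid line is equality and the dotted lines are 2-fold differences; most points of the left panel lie below the solid line, and on the right naive genes except *Klf5* lie above it and 21 of 23 HOX genes were called below it.

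Genes of neuroectoderm, primitive streak and primitive endoderm were mostly lower. Of 15 tested neuroectoderm genes 12 were lower, 8 past the minimum fold, and *Map2*, *Olig3* and *Ncam1* were higher. *Zic1*, a neural plate factor, stood at 6.1, 5.89 and 6.74 CPM in the WT libraries and 0.35, 0.464 and 0.415 CPM in the KO libraries. *Sox1*, the first marker of neural fate, stood at 68.9, 71.1 and 75 CPM in the WT libraries and 19.8, 18.2 and 17.7 CPM in the KO libraries. Of 16 tested primitive streak genes 9 were lower and 2 higher, with *T*, the Brachyury factor, at 1.91 CPM in WT and 0.292 CPM in KO, *Fgf8* at 5.51 CPM in WT and 1.04 CPM in KO and *Wnt3* at 2.66 CPM in WT and 0.397 CPM in KO, all low in WT already. Of 23 primitive and visceral endoderm genes 18 were lower and 4 higher. *Gata6* fell from 30 ± 1.01 CPM in WT to 12.2 ± 0.776 CPM in KO (SD, n = 3), the endocytic receptor *Cubn* from 238 CPM in WT to 98.8 CPM in KO, and the basement membrane genes *Col4a1* and *Col4a2* by 1.18 and 1.19 on the log2 scale. *Afp*, *Ttr*, *Apoa1* and *Hnf4a* of the same list were higher.

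Later mesoderm regulators did not share a direction, with 6 of 16 lower and 5 higher. *Bmp4*, which induces posterior mesoderm, stood at 11.5, 10.9 and 11.2 CPM in the WT libraries and 32.3, 33.9 and 29.7 CPM in the KO libraries. *Kdr*, *Hand1* and *Meox1* were higher too, at 1.73, 2.54 and 2.71, from means under 2 CPM in WT, and *Pdgfra*, *Tbx20* and *Foxf1* were lower. Sarcomere genes of cardiomyocytes were low in both groups and 6 of 7 tested were higher, with *Myl4* from 5.7 CPM in WT to 13.7 CPM in KO and *Myh6* from 2.31 CPM in WT to 5.65 CPM in KO.

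Markers of other cell types that such cultures can hold were counted over their full lists. Trophoblast markers summed to 100.3 to 102 CPM in WT and 331 to 338 CPM in KO, with 3 of 8 tested higher, 2 lower and 2 of 11 listed without a count. The 3 higher ones passed the minimum fold (37.5%, against 5.36% of all genes) and 0 were lower past it. Most of the sum was *Tfap2c*, which germ and ES cells also express. *Hand1*, also on this list, was higher at 2.54 on the log2 scale. The factors *Cdx2* (0.741 CPM in WT and 0.502 CPM in KO) and *Gata3* (2.22 CPM in WT and 2.11 CPM in KO) were low and not called. Fibroblast markers summed to 63.2 to 66.9 CPM in WT and 42.1 to 43.1 CPM in KO, with 5 of 7 lower and 2 higher. Blood and endothelium markers summed to 106 to 109 and 166 to 169 CPM, mostly *Pecam1*, which ES cells express, and 5 of 7 tested were higher and 1 lower. Cardiomyocyte markers summed to 16 to 18.4 and 31.7 to 33 CPM. The sums of neuron markers (232 to 238 and 242 to 251 CPM) and of hepatocyte and gut markers (57.1 to 60.5 and 53 to 55.7 CPM) were close between groups, but single members differed. Of 9 tested neuron markers 4 were higher and 2 lower, with log2 fold changes of -2.53 to 1.25. Of 9 tested hepatocyte and gut markers 4 were higher and 4 lower (-1.32 to 1.21). What part these cells have in the differences of the gene groups was not tested.

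Signalling lists differed in direction. In Nodal signalling, which keeps the epiblast and induces mesendoderm, 12 of 16 tested genes were lower and 1 higher. The inhibitor *Lefty1* fell from 279 ± 7.97 CPM in WT to 95.1 ± 3.53 CPM in KO (SD, n = 3), *Lefty2* from 134 CPM in WT to 80.1 CPM in KO, the activin antagonist *Fst* from 27.5 CPM in WT to 4.34 CPM in KO and *Nodal* itself by 0.64 on the log2 scale. Of 26 Wnt pathway genes 16 were lower and 7 higher. The receptor *Fzd2*, at 60.3, 66.7 and 67.6 CPM in the WT libraries and 13.6, 14.3 and 13.2 CPM in the KO libraries, and the secreted inhibitors *Sfrp1* (-1.56) and *Sfrp2* (-1.62) were lower. The ligand *Wnt7b* was higher, at 1.13, 1.08 and 1.52 CPM in the WT libraries and 15, 13.8 and 16.1 CPM in the KO libraries. The feedback targets split, with *Axin2* and *Notum* higher at 0.80 and 1.23 and *Sp5* and *Dkk1* lower at -2.99 and -1.76.

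In the Hedgehog pathway 10 of 13 genes were lower and 1 higher, among them the ligand *Ihh* (-1.63), the coreceptor *Gas1* (-2.30), the receptor *Ptch1* (-0.86) and the transducer *Smo* (-0.85). Notch pathway genes were lower in 10 of 17 and higher in 4 cases, with the ligand *Dll1* at -1.50 and the receptors *Notch3* at -1.02 and *Notch1* at 0.95. Of 17 retinoic acid genes 8 were lower and 6 higher. *Crabp1* fell from 128 ± 2.05 CPM in WT to 45 ± 2.15 CPM in KO (SD, n = 3) and *Dhrs3*, which returns retinal to retinol, by 1.64. The synthetic enzyme *Aldh1a2* stood at 2.36, 1.76 and 1.88 CPM in the WT libraries and 13.1, 14.2 and 13.7 CPM in the KO libraries. Of 21 FGF and ERK genes 10 were lower and 7 higher. *Fgf15* fell from 79.8 ± 2.31 CPM in WT to 17 ± 0.597 CPM in KO (SD, n = 3), and the feedback phosphatases split, *Dusp6* lower at -0.89 and *Dusp4* higher at 1.09. Immediate early genes were lower in 12 of 17 cases, with *Fosl2* at -2.05 and *Atf3* at -1.26. Of 20 BMP pathway genes 11 were lower and 7 higher, and of 15 YAP and TEAD targets 10 were lower and 4 higher. The other lists of this kind had more genes higher than lower. They were LIF and STAT3 signalling (5 higher and 2 lower of 9), the TNF and NF-kB response (10 higher and 6 lower of 21) and the interferon response with antigen presentation (12 higher and 8 lower of 24, 4 higher and 0 lower past the minimum fold). Centred on each chromosome's median, LIF and STAT3 signalling had 4 higher and 4 lower. The TNF and NF-kB response then had 10 higher and 8 lower, and the interferon list 14 higher and 8 lower. *Pim1*, a kinase induced by STAT3, rose from 30.8 CPM in WT to 76.7 CPM in KO, and *Ifitm1*, an interferon-induced membrane protein gene, from 54.8 CPM in WT to 158 CPM in KO.

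Naive pluripotency regulators were higher in 14 of 15 cases, by 0.39 (*Gbx2*) to 1.65 (*Dppa3*) on the log2 scale, and *Klf5* was lower (-0.22). *Nanog* stood at 392, 382 and 380.4 CPM in the WT libraries and 764, 786 and 785 CPM in the KO libraries. *Tfcp2l1*, *Zfp42*, *Prdm14* and *Fbxo15* rose by 1.23, 1.01, 1.10 and 1.16. The study named several of these genes from these samples, so their direction is not independent evidence. Genes used in both naive and epiblast states moved less, with 10 of 14 higher, 3 lower and *Pou5f1* not called (0.02 ± 0.02, SE), while *Lin28a* fell from 330 ± 4.39 CPM in WT to 164 ± 2.92 CPM in KO (SD, n = 3). Formative genes were lower in 11 of 14 cases, led by *Sox11* and *Foxd3* (-1.57). The study names *Lif*, with *Klf2* and *Nanog*, among the pluripotency genes higher in *Tnfaip2*-/- EBs. In the counts used here *Lif* was not called, at 13.1 CPM in WT and 12.3 CPM in KO. All 14 tested genes of the 2-cell-like state rose past the minimum fold, from a sum of 8.15 to 9.07 CPM in WT to 118 to 120.2 CPM in KO. With levels this low in WT, members could pass the filter on low counts through KO alone, where they are high. The count of 14 is therefore partly set by the filter. Members also share sequence, such as *Zscan4c* and *Zscan4f* with 85.3% and 86.6% of words shared, and are not separate observations.

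Imprinted genes, which are expressed from 1 parental allele, split between loci. Of 34 tested, 15 were lower and 14 higher, and 8 were lower and 0 higher past the minimum fold. Those of the *Dlk1* to *Mirg* cluster on chromosome 12 were all lower, the maternally expressed RNAs *Meg3* (-1.70), *Rian* (-1.42) and *Mirg* (-1.61) together with the paternally expressed *Dlk1* (-1.34) and *Rtl1* (-1.51). *Meg3* stood at 486, 521 and 510 CPM in the WT libraries and 157, 158 and 153 CPM in the KO libraries. *Grb10*, an adaptor that limits growth factor receptors, stood at 1020, 1003 and 1031 CPM in the WT libraries and 225, 234 and 227 CPM in the KO libraries, a log2 fold change of -2.16 ± 0.02 (SE, edgeR adjusted p = 1.2e-37), and *Nnat* fell by 1.56. *H19* (0.48), *Peg3* (0.47) and *Igf2r* (0.30) rose, and *Cdkn1c* and *Peg10* were not called.

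Of 21 genes of the epithelial to mesenchymal transition and the cadherin switch, 13 were lower and 7 higher, and both mesenchymal and epithelial members were among the lower ones. *Vim*, the mesenchymal intermediate filament, stood at 205, 205 and 204 CPM in the WT libraries and 49.8, 50.8 and 48.9 CPM in the KO libraries, a log2 fold change of -2.04 ± 0.03 (SE, edgeR adjusted p = 1.05e-33), and *Cdh2* and *Zeb2* fell by 1.39 and 1.52. *Grhl2* and the epithelial splicing factor *Esrp1*, from 16.1 ± 0.45 CPM in WT to 47.8 ± 3.04 CPM in KO (SD, n = 3), rose, while *Cdh1* rose by only 0.09 and the epithelial genes *Cldn6*, *Cldn7*, *Cdh3*, *Krt8* and *Krt18* were lower at -0.74, -0.59, -0.53, -0.42 and -0.16. Of 53 keratins 16 passed the filter, and 11 of these were higher, 8 past the minimum fold. They were mostly keratins of stratified epithelia near the floor in WT, such as *Krt42* from 2.48 CPM in WT to 11 CPM in KO and *Krt17* from 1.37 CPM in WT to 4.63 CPM in KO. Such genes could pass the filter through KO alone, so these counts are partly set by it. Of the 16 tested, 11 lie on chromosome 11 or X, whose genes were higher on the whole. Centred on each chromosome's median, 11 were again higher and 8 past the minimum fold. *Krt19* fell from 20.3 CPM in WT to 8.85 CPM in KO. Of 69 protocadherins 22 were tested and 17 were lower and 1 higher. Of 32 classical and desmosomal cadherins 18 were tested, and 12 were lower and 3 higher, with *Cdh11* at 5.16 CPM in WT and 0.526 CPM in KO.

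Among cell cycle genes, the differences past the minimum fold were in G1. The G1 kinase *Cdk6* stood at 43.2, 44.6 and 39.8 CPM in the WT libraries and 8.65, 7.67 and 7.82 CPM in the KO libraries, and its cyclin *Ccnd2* at 49.6, 50.8 and 53.4 CPM in the WT libraries and 11.3, 11.8 and 12.4 CPM in the KO libraries. The inhibitor *Cdkn1b* was lower as well, by 2.33-fold, and the later cyclin *Ccne1* rose from 158 ± 2.95 CPM in WT to 282 ± 5.09 CPM in KO (SD, n = 3). Replication genes (14 of 28 higher, 8 lower) and mitosis genes (8 of 25 higher, 9 lower) held no gene past the minimum fold. Histone genes were higher in 24 of 33 cases and lower in 6, at a sum of 1652 to 1707 CPM in WT and 2171 to 2222 CPM in KO. The libraries were made with a kit that selects polyadenylated RNA, which replication-dependent histone messages lack, and 49 of 82 histone genes did not pass the filter. *H1f0* rose from 92.6 CPM in WT to 179 CPM in KO, and *H2afy2* fell from 48.5 CPM in WT to 27 CPM in KO. *Hist1h1c*, a linker histone, rose from 5.0 CPM in WT to 16.4 CPM in KO. Proteasome subunits rose by small steps in 27 of 38 cases, with 3 lower and a median of 0.23. *Psmd12*, *Psmd3* and *Psmd11* on chromosome 11 and *Psmd10* on chromosome X rose by 0.72, 0.61, 0.59 and 0.59.

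Lists of lipid metabolism held few genes past the minimum fold. Fatty acid oxidation enzymes were split at 9 higher and 9 lower of 23, fatty acid synthesis genes at 8 and 8 of 22, and exocyst genes and *Tnfaip2* relatives at 4 and 4 of 12, with *Exoc3* at 64.2 ± 2.17 CPM in WT to 50.8 ± 0.725 CPM in KO (SD, n = 3). The carnitine shuttle, which carries acyl groups into mitochondria, was lower in 5 and higher in 3 of 8 genes, with a median log2 fold change of -0.49. *Cpt1a*, its rate-limiting enzyme, stood at 99.2, 102 and 98.7 CPM in the WT libraries and 62.6, 61 and 58.7 CPM in the KO libraries, and *Cpt2* and *Cpt1c* fell by 0.70 and 0.70. Triacylglycerol and lipid droplet genes were lower in 16 and higher in 10 of 33 cases, and *Vldlr*, the lipoprotein receptor that is also on the hypoxia and ATF4 lists, stood at 45.5, 45 and 46.8 CPM in the WT libraries and 4.97, 4.75 and 4.08 CPM in the KO libraries.

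Whole chromosomes differed between the groups. Relative to the other autosomes, the median log2 ratio of KO to WT was 0.31 for chromosome X and 0.24 for chromosome 11, and on the lower side it was -0.24 (chromosome 8), -0.23 (17), -0.16 (12), -0.15 (13) and -0.12 (4). The SD over the 3 libraries of a group was at most 0.0225 on these chromosomes, and the 3 KO libraries lay apart from the 3 WT libraries on each of these. Counting tested genes with a fold change above 0, called or not, the share was 71.8% on chromosome X and 30.0% on chromosome 8, and 49.5% over all genes. Each shift is smaller than the tested minimum fold. When fold changes were centred on each chromosome's median, an alternative chosen after seeing the data for gene groups, the median went from -1.13 to -1.35 for HOX genes, 9 of which lie on chromosome 11 or X, from 0.23 to 0.19 for proteasome subunits, from -0.22 to -0.12 for splicing factors and from -1.19 to -1.14 for hypoxia genes. Of 38 proteasome subunits, 7 of which lie on chromosome 11 or X, 33 were called higher and 1 lower once centred, against 27 and 3 before. The cause of the shifts was not tested.

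**Figure D5:**
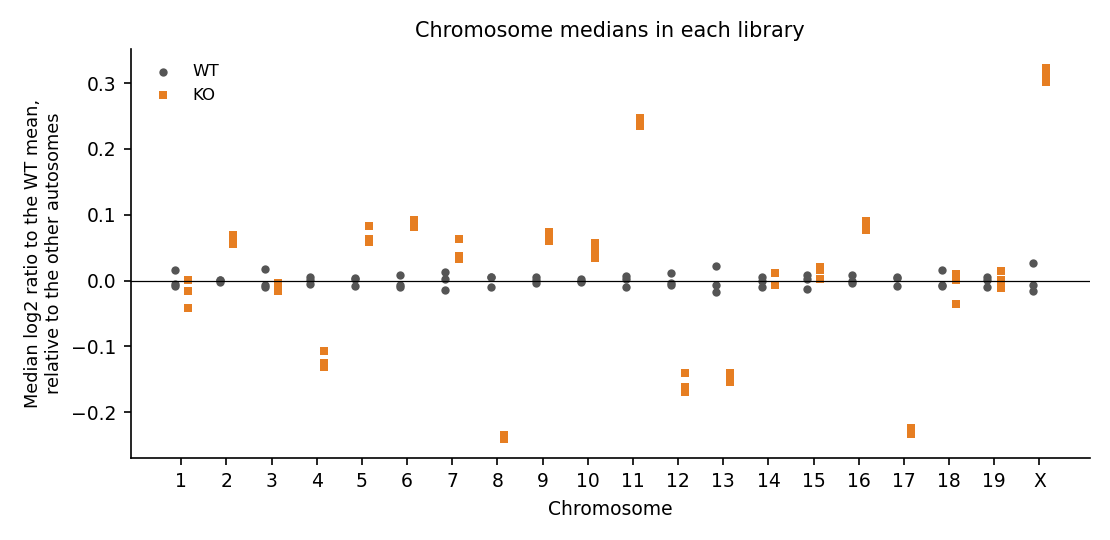
Median log2 ratio to the WT mean of the genes of each chromosome (x axis), relative to the other autosomes (y axis), in each of the 3 WT (grey circles) and 3 KO (orange squares) libraries. KO libraries lie above WT on chromosomes X (0.31) and 11 (0.24) and below on 8 (-0.24) and 17 (-0.23).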

How the data were processed

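RNA-seq counts of 3 KO and 3 WT EB libraries were used. Per the labels, the authors ran bcl2fastq 2.20.0.422, STAR 2.7.2b and featureCounts 1.6.5 on GRCm38 to make the deposited counts, which are whole reads per Ensembl gene and not normalized. The study's methods also describe an earlier pipeline for a first KO and WT analysis, and which one made the WT columns is not given in the sources used here. Libraries were unstranded, and reads mapping to several places or genes were not counted, so overlapping, antisense and multicopy genes are uncertain. The number of unused per-sample columns was 0. Symbols came from GENCODE M21 (241 IDs unmatched).

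Genes were tested with edgeR 4.0.16 in R 4.3.3 (filterByExpr, TMM, quasi-likelihood F test, Benjamini-Hochberg adjustment, threshold 0.05), and against a minimum fold of 2 with glmTreat. The 6 libraries were fitted without covariates. Standard errors are those of log2 fold changes. CPM values use library totals. By a chi-square test of counts, no replicate pair was as close as sampling noise alone would leave it.

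Gene lists and families are described by counts and medians beside all genes, with no set test. Members and lists were chosen with earlier results of these data known. Of 112 lists and families with tested members, the 27 plotted and those described were picked after their values were seen. Named genes were the study's own, the 12 largest rises and 12 largest falls past the minimum fold (mean of at least 10 CPM in 1 group, no overlap), the same among transcription factors, up to 4 per list, and list members given as values; some are not reported here. Alternatives were DESeq2 1.42.0, RLE and library-total scaling, other filters, a joint fit with the treated libraries, the replicate block, thinning, libraries left out, chromosome centring and a minimum of 1.5. The test was run on simulated data first. A permutation test of 3 against 3 cannot reach p = 0.05, so none was used.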

Additional observations from a re-analysis of the deposited data

How the results depend on the processing

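DESeq2, whose test against 2-fold is stricter, called 993 genes past the minimum fold (578 higher, 415 lower) in place of 1587, and a tested minimum of 1.5-fold called 3637 (1876 higher, 1761 lower) and 254 transcription factors (91 higher, 163 lower). With each of the 6 libraries left out in turn, 12382 to 12820 genes were called, 1504 to 1605 past the minimum fold, with 119 to 125 transcription factors. The titles number both groups, and same-numbered libraries did not deviate together (correlations of -0.33, 0 and -0.12). With 3 libraries per group, such correlations cannot show whether same-numbered libraries shared a culture or batch. With the replicate block 12587 genes were called, 1544 past the minimum fold and 121 transcription factors. Under library totals the medians of chromosomes 2, 10 and 16 were 0.0765, 0.0586 and 0.0987 (0.0626, 0.046 and 0.0842 with TMM). These differ in construction too, being medians of fitted fold changes and not of per-library ratios. Medians of 112 groups were recomputed under 15 alternatives chosen after seeing the data for groups. Of 1680 values 1543 moved by less than the median SE of the group's members, 118 moved by more with the same sign and 19 moved by more and changed sign. Smaller moves across 0 were not counted. These 19 came from 13 groups, whose reported medians were 0.19 or less in size. Without a filter on low counts, which adds low-count members, the medians were 0.11 for forkhead factors (-0.19 with the filter), -0.003 for integrins (0.12) and 0.25 for GATA factors. Centred on chromosomes, they were -0.004 for TNF and NF-kB response genes, -0.007 for the tricarboxylic acid cycle, -0.068 for other bHLH factors and -0.038 for respiratory complexes III and IV. With each library left out in turn, medians near 0 changed sign as well and spanned -0.045 to 0.269 for hepatocyte and gut markers, -0.019 to 0.038 for fatty acid synthesis, -0.125 to 0.01 for p53 targets, -0.127 to 0.122 for SOX factors, -0.175 to 0.12 for GATA factors, -0.044 to 0.095 for nuclear receptors, -0.03 to 0.04 for TFCP2, GRHL, AP-2, RUNX and p53 factors and -0.03 to 0.018 for respiratory complexes III and IV. Of 385 named genes none reversed, and *Map2*, *Atp5h*, *Dsc2*, *Exoc8* and *Pim3* lost their call under at least 1 alternative, while *Lif* was called lower (-0.31 ± 0.07, SE, edgeR adjusted p = 0.000202) once centred on its chromosome, and *Map2* was not called by DESeq2 (0.21, adjusted p = 0.0548). At this depth low-count genes limit the precision. On simulated counts the test recovered 77% of genes changed by 0.3 and 100% of those changed by 3 on the log2 scale. The simulation gave every gene the same biological variation and changed no gene near the floor in WT, so these shares do not cover low-count genes.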

Other observations

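Calcium-binding and secreted families split into members of opposite direction. Of 19 tested annexin and S100 genes 11 were higher and 6 lower. *Anxa2*, which links membranes to actin, stood at 102, 101 and 103 CPM in the WT libraries and 20, 19.8 and 17.6 CPM in the KO libraries, and *S100a6*, a small calcium sensor, at 6.74, 6.18 and 5.98 CPM in the WT libraries and 29.7, 31.3 and 30.8 CPM in the KO libraries. *S100a13* and *Anxa8* were higher at 2.24 and 1.74 on the log2 scale and *S100a1* was lower at -1.29. Of 17 tested serpins 11 were higher and 5 lower. The collagen chaperone *Serpinh1* fell from 450.5 ± 6.92 CPM in WT to 208 ± 4.26 CPM in KO (SD, n = 3). Among 36 collagens 17 were higher and 11 lower, with *Col9a2* from 23.6 CPM in WT to 81.3 CPM in KO, *Col6a5* from 3.69 CPM in WT to 16.9 CPM in KO and *Col2a1*, the cartilage collagen, from 58.8 CPM in WT to 19.8 CPM in KO.

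Chromatin and germline regulators held single large differences within lists that moved little. Of 32 Polycomb genes 14 were higher and 12 lower. *Phf19*, which recruits the Polycomb repressive complex PRC2, stood at 18.8, 21.5 and 19.9 CPM in the WT libraries and 82.8, 82.3 and 77.4 CPM in the KO libraries, and *Epop*, another PRC2 partner, rose from 381 CPM in WT to 762 CPM in KO. Of 21 germline and meiosis genes 11 were higher and 7 lower, with *Nanos3*, which protects early germ cells, at 2.33 CPM in WT and 12.3 CPM in KO, *Tdrd12* at 6.31 CPM in WT and 25.4 CPM in KO and *Ddx4*, of later germ cells, at 35.5 CPM in WT and 16.2 CPM in KO. Genes listed near silence in 1 group were few. With at most 3 counts in every library of 1 group and at least 1 CPM in every library of the other, 12 genes were present in KO and 2 in WT. *Six2* was 1 of the latter.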
